A study of Mus musculus with 4 samples.

Results

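Open chromatin regions over the 3′ untranslated exons of protein-coding genes were described in dental mesenchyme of the mouse incisor. A region was taken when its midpoint lay in the 3′ untranslated region (3′ UTR) of a protein-coding transcript, in no coding sequence, and over 1 kb from any protein-coding transcription start site (TSS), on mm10 with the GENCODE vM21 basic annotation. Of 121574 open regions, 1386 (1.14%) met this rule, and they lay in the 3′ UTRs of 1131 genes. They held 14610 of the 2297894 reads in regions, a share of 0.636%. They were set against 5114 intronic regions of the same genes, which also had to lie over 1 kb from any protein-coding TSS. Beyond this limit, distance from a TSS was not matched. Over 50 kb from a TSS lay 2144 of the intronic regions and 227 of the 3′ UTR regions. Because 16 regions lay in the 3′ UTRs of several genes and 435 abutted another region, the 1386 regions are not all independent places.

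The assay was ATAC-seq, which reads out accessible DNA by where a transposase inserts sequencing adapters. The material came from wild-type C57BL/6 mice aged 4 weeks, and the deposited samples were 4 lanes listed under 1 shared name. They were therefore 1 library, with no replicate error, no second condition and no test between groups. Whether cells of several animals were pooled was not given in the sources used here. Intervals are exact 95% intervals, Poisson for reads and densities and binomial for shares, and they cover counting error alone. A promoter region, meaning one with its midpoint within 1 kb of a protein-coding TSS of the gene, was present at 19 of 21 dental mesenchyme factors. It was present at 10 of 12 odontoblast and osteoblast genes. Among markers of other cell types it was present at 6 of 8 endothelial, 6 of 8 epithelial, 5 of 6 neuronal, 3 of 6 muscle and 0 of 8 leukocyte genes. Over all genes with eligible 3′ UTR sequence the share was 67.0% (13591 of 20281), and the endothelial, epithelial and muscle lists were not far from it. The dental mesenchyme factors had the highest share of these lists and leukocyte markers had none, but neuronal markers were close behind, so this check separates the cell types poorly. The part of other cell types in the values below was not tested. In a bulk library, fewer cells with an open site and a weaker signal in every cell cannot be told apart.

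A 3′ UTR is the stretch of the last exon or exons between the stop codon and the polyadenylation site. In the mRNA it carries binding sites for microRNAs and RNA-binding proteins, which set stability, translation and localisation. The same DNA is also part of the chromatin at the end of a transcription unit, where polymerase passes the cleavage signal and terminates, and it can hold binding sites of DNA-binding factors. The zinc finger protein CTCF, which anchors chromatin loops and insulates neighbouring domains, recognises a long sequence motif.

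The CTCF motif was more frequent in 3′ UTR regions than in intronic regions of the same genes. Matches are therefore shown for regions with many reads among those that held it, picked after their values were seen. Each sequence is 30 bases from the RefSeq mouse genome (GRCm38.p6, the same sequence as mm10), written 5′ to 3′ on the strand given, with the match in capitals. Slc4a3 encodes an anion exchanger and Tnfrsf1b a receptor for tumour necrosis factor. Ror2 encodes a receptor for Wnt5a and had 2 matches in 1 region. Edaradd encodes the adaptor of the ectodysplasin receptor, a pathway needed for normal teeth, and Mettl14 a subunit of the RNA adenosine methyltransferase. The last line shows an AP-1 match, the element bound by Fos and Jun proteins, in the third-largest 3′ UTR region, at Ccdc97.
Slc4a3, chr1:75559667-75559696, minus strand: caaaaaccaCCACCAGAGGGCtacacacgg
Tnfrsf1b, chr4:145214570-145214599, plus strand: caggacgggCCACCAGGGGGCagacgtgtt
Ror2, chr13:53109641-53109670, plus strand: ctttggactCCAGCAGATGGCagcatcgag
Ror2, chr13:53109743-53109772, plus strand: catcctccgCCAGCAGGGGGCtcacggagc
Edaradd, chr13:12473940-12473969, plus strand: ctgtatcctCCAGCAGGGGGCagcatcaca
Mettl14, chr3:123372093-123372122, minus strand: ccttggaagCCACTAGAGGGCgcgtctgtc
Ccdc97, chr7:25711859-25711888, plus strand: caggccatggcTGAGTCAcaggcagccatc

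Open regions were about as frequent along 3′ UTRs as along introns. There were 44.4 regions per Mb of eligible 3′ UTR sequence (42.1 to 46.8, over 31.2 Mb) and 47.5 per Mb of eligible intron sequence of all protein-coding genes (47.1 to 48.0). The ratio was 0.935 (0.886 to 0.987). Sequence soft-masked as repeats made up 19.2% of the 3′ UTR sequence and 29.1% of the intron sequence. Counted per Mb outside such repeats, the densities were 55.02 for 3′ UTRs and 67.0 for introns, a ratio of 0.821. With first introns left out, the ratio was 0.988.

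The 3′ UTR regions were small, and their read counts resembled those of introns. The median was 6 reads for a 3′ UTR region (quartiles 3 and 12.75), and an intronic region of the same genes had a median of 6 (3 and 13). Median width was 249 bp in 3′ UTRs and 246 bp in introns, and median density 24.7 reads per kb of region in both. At least 10 reads were found in 487 of the 3′ UTR regions (35.1%, 32.6 to 37.7) and in 1866 of the intronic regions (36.5%, 35.2 to 37.8), against 39.0% of all regions. At the upper end, 93 of the 3′ UTR regions (6.71%, 5.45 to 8.16) and 418 of the intronic regions (8.17%, 7.44 to 8.96) had at least 30 reads, against 14.1% of all regions. The largest count was 227 in a 3′ UTR and 2141 in an intron. At the low end 78 of the 3′ UTR regions had 0 reads (5.63%), as had 286 intronic regions (5.59%).

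**Figure D1:**
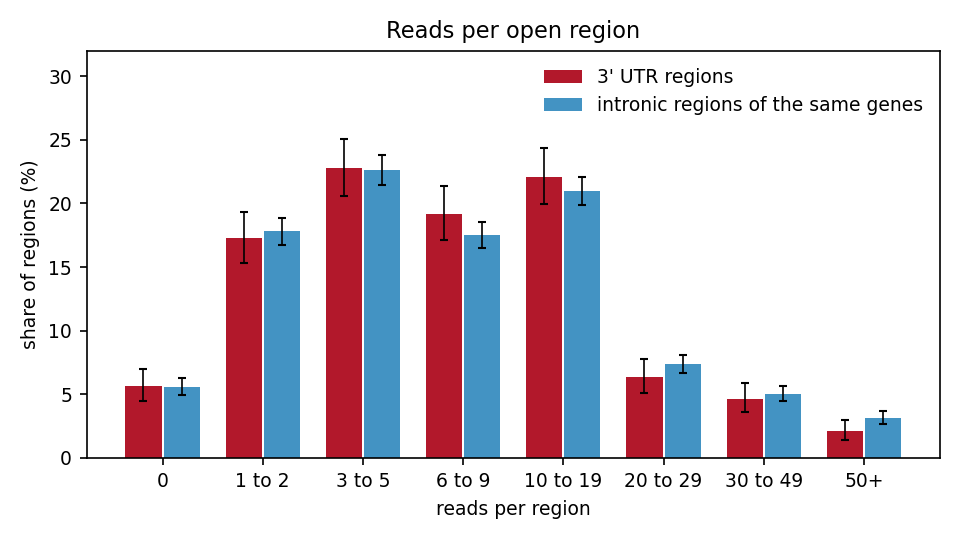
Share of regions (percent, vertical axis) by reads per region (horizontal axis) for the 1386 3′ UTR regions (red) and the 5114 intronic regions of the same genes (blue), with exact 95% binomial intervals. The 2 distributions follow each other closely; at 50 reads and more the share is 2.09% in 3′ UTRs and 3.13% in introns.

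Close to promoters, 3′ UTR regions had lower values than intronic regions at the same distance, within counting error. Between 1 and 2 kb from a TSS, 29.4% of 68 3′ UTR regions (18.98 to 41.7) and 42.8% of 201 intronic regions (35.8 to 49.9) had at least 10 reads. From 2 to 5 kb the shares were 39.1% in 3′ UTRs (31.4 to 47.2) and 46.9% in introns (40.8 to 53.0), and beyond 50 kb they were 33.9% in 3′ UTRs (27.8 to 40.5) and 35.0% in introns (33.0 to 37.0). In each of these bins the intervals of both classes overlapped. Next to the distance limit, 15 regions from 1000 to 1200 bp had a median of 5 reads (highest 50), and 16 regions in 3′ UTRs from 800 to 1000 bp, which the limit left out, had a median of 6 (highest 81).

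Nearly all 3′ UTR regions lay in terminal exons, and most were wholly within the 3′ UTR class. The midpoint was in the last exon of the transcript for 1383 regions (99.8%), and the whole region was inside the class for 1107 (79.9%). The region reached into coding sequence in 196 cases (14.1%), with a median of 9 reads against 6 in the others, and past the end of the transcript in 95 (6.85%), with a median of 11 against 6. Such regions were also wider, with medians of 329.5 bp (coding) and 323 bp (past the end), against 239 and 246 bp in the others. Per kb of region, median reads were 24.1 (coding) and 29.9 (past the end), against 25 and 24.2 in the others. The midpoint also lay in an intron of another transcript in 171 cases (12.3%), and a gene on the opposite strand covered it in 125 (9.02%). The nearest protein-coding TSS was that of the gene itself for 731 regions (52.7%, 50.1 to 55.4). The TSS of a transcript not annotated as protein-coding, of any gene, lay within 1 kb of 54 3′ UTR regions (3.90%, 2.94 to 5.05). It did so for 104 intronic regions (2.03%, 1.66 to 2.46), with median reads of 5.5 in 3′ UTRs and 6.5 in introns.

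The last part of the 3′ UTR held fewer regions than the parts before it. Divided into 5 equal parts from the stop codon to the transcript end, the 3′ UTRs held 310, 259, 291, 310 and 216 regions, so that the last part had 15.6% of them (13.7 to 17.6). Median reads in these parts were 6, 7, 5, 7 and 7, with no order. Along the genome, counting all open regions over 1 kb from a TSS, density was 41.3 per Mb within 250 bp of the most distal annotated gene end (37.4 to 45.5). It was 57.5 per Mb from 1000 to 500 bp inside the gene (52.9 to 62.5) and 51.4 per Mb from 500 to 1000 bp beyond the end (47.1 to 55.9). From 2 to 3 kb beyond the end it was 60.8 per Mb (57.4 to 64.2), and from 5 to 3 kb inside the gene 44.6 per Mb (42.6 to 46.8). The share of G and C in the sequence was lowest at the dip. It was 42.5% within 250 bp of the end, 45.7% from 1000 to 500 bp inside and 44.8% from 500 to 1000 bp beyond. In the other windows it was 44.6% from 2 to 3 kb beyond and 44.9% from 5 to 3 kb inside, although their densities differed. The part of this share in the dip was not tested.

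**Figure D2:**
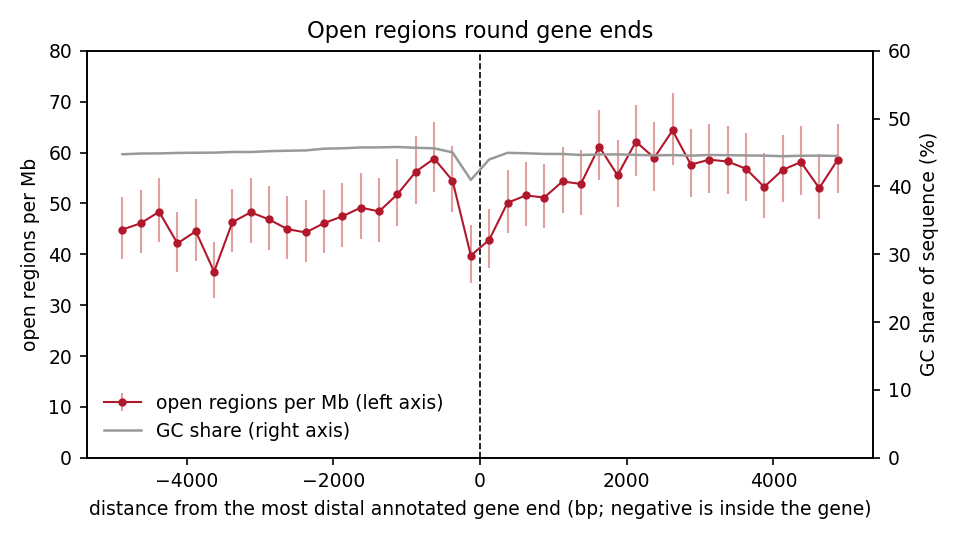
Open regions per Mb (red points, left axis, exact 95% Poisson intervals) in 250 bp bins up to 5 kb on either side of the most distal annotated end of protein-coding genes (horizontal axis, bp), with the share of G and C (grey line, percent, right axis). Density near the end falls to 39.8 per Mb in the last 250 bp of the gene, where the G and C share is 41.0%; the lowest bin of the whole plot is 36.6 per Mb, 3750 to 3500 bp inside the gene.

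In composition, open 3′ UTR sequence differed more from 3′ UTR windows away from regions than from open introns. Those windows came from the 3′ UTRs of all protein-coding genes, not just those with an open 3′ UTR. In the 200 bp round the midpoint, the median G and C share was 50.5% in 3′ UTR regions, 49% in intronic regions of the same genes and 42.5% in 3′ UTR windows away from any region. The median ratio of observed to expected CpG pairs was 0.253 in 3′ UTR regions, 0.219 in intronic regions and 0.181 in 3′ UTR windows away from regions. CpG island-like windows, with a G and C share of at least 50% and a CpG ratio of at least 0.6, made up 80 of the 3′ UTR regions (5.77%, 4.603 to 7.13) and 117 of the intronic regions (2.29%, 1.90 to 2.74). They made up 0.698% of 3′ UTR windows away from regions and 16.1% of all open regions, promoters included. The 80 island-like 3′ UTR regions had a median of 8 reads, and the other 3′ UTR regions 6. Median widths were 298 bp (island-like) and 247 bp (others), and median densities 30.2 and 24.4 reads per kb of region.

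The 12 largest 3′ UTR regions lay at 11 genes and held 10.4% of all reads in 3′ UTR regions. The largest was at Sox12, a single-exon gene for a Sox transcription factor, with 227 reads (198 to 259) at chr2:152396135-152396547, 1705 bp from the TSS. The next was at Shf, which encodes an SH2 domain adaptor, with 224 reads (196 to 255) at chr2:122348482-122349334. This region covered most of the 461 bp 3′ UTR, reached past its end and was CpG island-like, with a G and C share of 70.5%. Ccdc97, which encodes a coiled-coil protein, had 180 reads (155 to 208) and no intronic region. H13 had a pair of regions among the 12. It encodes signal peptide peptidase and hosts the retrogene Mcts2 in an intron, and its 3′ UTR held 4 regions with 4, 179, 2 and 89 reads, the nearest protein-coding TSS to the larger ones being that of Mcts2.

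The remaining large regions mixed synaptic, metabolic and cell death genes. Unc13a, needed for synaptic vesicle priming, had 151 reads (128 to 177) in a region across the stop codon, 1724 bp from the nearest annotated TSS of any kind and 18.4 kb from the nearest protein-coding TSS, that of Colgalt1. Bcat2, the mitochondrial branched-chain aminotransferase, had 100 reads (81.4 to 122). The BH3-only genes Bad and Bmf, which promote apoptosis, had 83 (66.1 to 103) and 65 (50.2 to 82.8); Bmf shared its count with a region at Zbtb7b that came after it in genome order. Prrt1, which encodes a transmembrane protein, had 77 reads (60.8 to 96.2), the retinol dehydrogenase gene Rdh13 had 76 (59.9 to 95.1) and the chemokine gene Ccl25 had 75 (59.0 to 94.0). Of the 12 regions, 5 were CpG island-like and 5 reached into coding sequence. The 12 regions were between 381 and 853 bp wide, above the upper quartile of width over all 3′ UTR regions (347 bp). The widest 3′ UTR region, at Ppp1r3b (968 bp), had 15 reads.

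**Figure D3:**
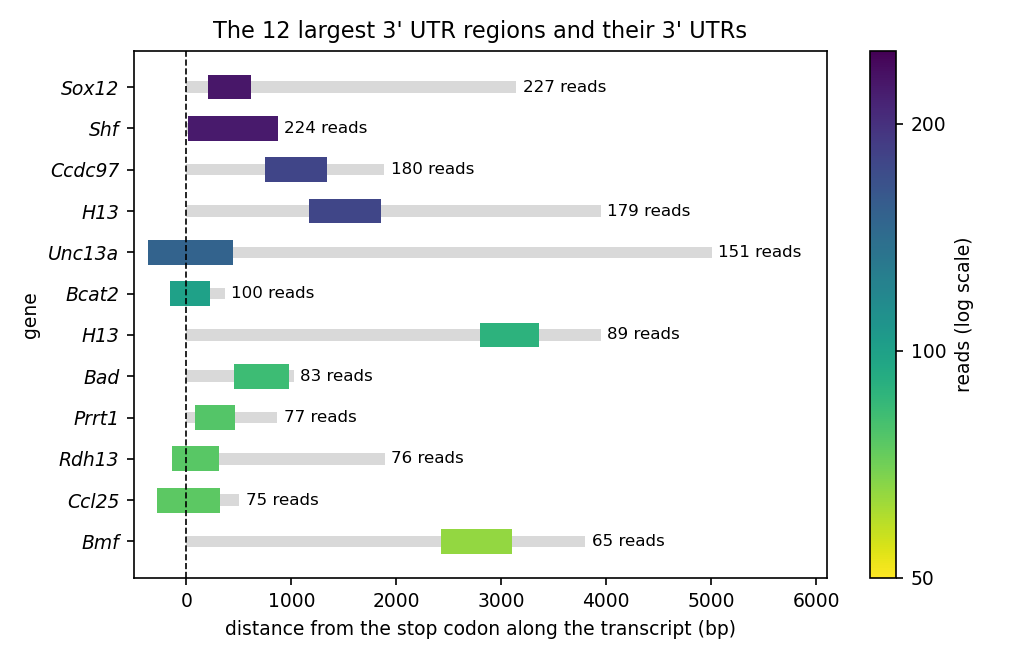
Position of the 12 largest 3′ UTR regions (coloured bars, colour giving reads on a log scale) along their 3′ UTRs (grey bars), as distance from the stop codon in bp on the horizontal axis; bar length is the region's width on the genome. Reads run from 227 at Sox12 to 65 at Bmf, and the bars stand at the stop codon (dashed line), mid-UTR and near the transcript end.

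Within genes that had both kinds, the largest open region lay in an intron more often than in the 3′ UTR. Among 731 genes with both a 3′ UTR region and an intronic region, the largest 3′ UTR region had more reads than the largest intronic one in 183 (25.03%, 21.9 to 28.3), with 20 ties. These genes have more intronic regions to draw from, and in the 143 genes with exactly 1 region of each kind the 3′ UTR region was the larger in 69 and the intronic one in 70, so that 49.6% of the untied pairs favoured the 3′ UTR (41.1 to 58.2). Per kb of sequence, reads were denser in the 3′ UTR than in the introns in 943 of 1084 genes (87.0%). Every one of these genes was taken because it had a 3′ UTR region, which raises this share, and nothing is read from it.

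The same density is given as a log2 ratio, 3′ UTR over introns, for the extremes of the 116 genes with at least 20 reads in each. The choice of genes by an open 3′ UTR raises this ratio too, so its level and sign are a description only. The largest were Nkain3 (6.62), which encodes a partner of the sodium pump, and Klhl6 (6.20), a Kelch-family gene of lymphocytes. They were followed by Shf (6.08), the matrilin gene Matn4 (5.91) and Ccl25 (5.76). In Nkain3 a single 3′ UTR region had 44 reads, against 50 reads in 11 intronic regions spread over 648.8 kb. The smallest was that of D1Ertd622e (-1.15), with 50 reads in its 3′ UTR and 40 in its introns. The next were the protocadherins Pcdhgc5 (0.14) and Pcdhgc4 (0.19), which share their 3′ UTR regions, the centrosome gene Cdk5rap2 (0.32) and the cytochrome b561 family gene Cyb561a3 (0.42).

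Several regions in 1 3′ UTR were uncommon. A single region was found in 884 of the 1131 genes (78.2%), 2 in 182, 3 in 55 and 4 or more in 10. Regions shared between genes are counted for each of them here, and 21 of the 55 genes were Pcdh genes with the same 3 regions. With each set of shared regions counted once there were 1101 sets, of which 875 held 1 region (79.5%), 181 held 2 and 35 held 3. The most were 8 in the 39397 bp 3′ UTR of D1Ertd622e, with between 1 and 13 reads each. Phactr2, which encodes an actin and phosphatase regulator, and Tspan5, a tetraspanin gene, had 5 each with 60 and 58 reads in all. The nuclear transport gene Xpo7 had 4 with 7, 35, 3 and 7 reads. In D1Ertd622e, Phactr2, Tspan5 and Xpo7 some of these regions abutted, so that they may be parts of 1 wider open stretch.

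Genes with an open 3′ UTR were 1131 of the 20281 with eligible 3′ UTR sequence (5.58%), and the share grew with the length of the 3′ UTR. It was 1.11% for 3′ UTRs under 500 bp, 3.27% from 500 to 1000 bp, 5.91% from 1000 to 2000 bp, 9.36% from 2000 to 4000 bp and 16.7% above that. Regions per Mb did not grow with it, at 50.8, 52.5, 55.1, 44.6 and 39.8 in the same order of length. With genes that share all their 3′ UTR regions counted once, the value from 1000 to 2000 bp was 46.4 per Mb, and 5.47% of genes in that bin had an open 3′ UTR. Genes with an open 3′ UTR more often had a promoter region, 83.4% (81.1 to 85.5) against 66.0% of genes without one (65.4 to 66.7). The direction was the same in every length bin. In the shortest bin, 59.1% of genes with an open 3′ UTR (46.3 to 71.0) and 50.8% of genes without one had a promoter region, and from 500 to 1000 bp 72.4% (63.8 to 79.99) and 66.7%, so that both differences were within counting error. In the longest it was 92.6% of genes with an open 3′ UTR (88.9 to 95.3) and 79.8% of genes without one. Their introns held 70.3 regions per Mb, against 45.8 in genes without one.

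Among 21 dental mesenchyme factors, 3 had an open 3′ UTR (14.3%, 3.05 to 36.3), an interval that takes in the 5.58% of all genes. Runx2, without which osteoblasts do not form, had a 3′ UTR region of 12 reads (6.20 to 21.0) at chr17:44606404-44606606, and the LIM homeobox gene Lhx6 had 4 (1.09 to 10.2). Msx1 and Msx2, homeobox factors of the early tooth, had none, and their promoter regions had 164 and 134 reads. None was found in Bmp2, Igf1r or Igfbp5, although the introns of Igf1r, the receptor of insulin-like growth factor 1, held 36 regions with 468 reads. Among 12 odontoblast and osteoblast genes 0 had one, which allows a share of up to 26.5% (exact binomial).

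In the share of genes with an open 3′ UTR, signalling lists did not stand beyond counting error from all genes. Their introns did hold more regions per Mb than the 47.5 of all introns. The lowest was the FGF list with 69.8 (61.2 to 79.2) and the highest the IGF list with 120 (97.3 to 147). In the BMP and TGF-beta list 4 of 30 genes had an open 3′ UTR (13.3%, 3.76 to 30.7). Bmpr1a, a type I BMP receptor, had 24 reads (15.4 to 35.7), the ligand Bmp7 had 21 in 2 abutting regions, and the signal transducer Smad1 had 20 in 2. In the Wnt list 5 of 49 genes did (10.2%, 3.40 to 22.2): Ror2 led with 49 reads, of which 47 (34.5 to 62.5) fell in the region with both CTCF matches shown above, and Ror1, its paralogue, had 7. The antagonist Dkk1, the kinase gene Gsk3b and the co-receptor Lrp6 had 5 each. In the FGF list 3 of 24 genes did (12.5%, 2.66 to 32.4), with 10 reads at the inhibitor Spred1, 8 at the docking protein gene Frs2 and 7 at the receptor Fgfr1. The hedgehog list had 1 of 16 genes, the ligand Dhh with 10 reads, and the IGF list 1 of 16, the phosphatidylinositol 3-kinase subunit Pik3r1 with 8.

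Most intervals of the other lists took in the 5.58% of all genes. Of 27 immediate early and AP-1 genes 3 had an open 3′ UTR (11.1%, 2.35 to 29.2), led by Ier5l with 52 reads (38.8 to 68.2) in 1 region, before the zinc finger gene Egr4 with 3 and the AP-1 subunit Fosl2 with 2. Of 44 collagen genes 3 did (6.82%), with 12 reads each at Col15a1 and Col4a4 and 2 at Col12a1. Of 75 ribosomal protein genes 1 did, Rpl22 with 12 reads (1.33%, 0.0338 to 7.21), although 97.3% of them had a promoter region. Among markers of other cell types, the muscle list stood above all genes in counting terms, with 3 of 6 (50%, 11.8 to 88.2, against 5.58%). Its 3 genes were Myod1 with 4 reads, Tnnt3 with 2 and Myog with 1, on 0.00427 Mb of 3′ UTR sequence (702 regions per Mb, 145 to 2052). The endothelial receptor Kdr had 22 reads (13.8 to 33.3), and the leukocyte factor Spi1 had a region with 0. No neuronal marker of 6 had one.

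Few zinc finger genes with a Zfp symbol had an open 3′ UTR. Of 379 such genes 4 did (1.06%, 0.288 to 2.68, against 5.58% of all genes). Their 3′ UTRs held 6.94 regions per Mb (2.25 to 16.2) and their introns 36.4 per Mb (32.6 to 40.5), against 44.4 for all 3′ UTRs and 47.5 for all introns. The 4 genes were Zfp775 with 8 reads and Zfp334, Zfp704 and Zfp710 with 6 each. A promoter region was present in 87.9% of Zfp genes, with a median of 56 promoter reads per gene, against 67.0% and 30 over all 20281 genes. The median 3′ UTR length was 1514 bp in Zfp genes and 1046 bp over all genes. The median G and C share of 200 bp windows was 40.5% in Zfp 3′ UTRs and 43.0% in other 3′ UTRs, and 21.4% and 19.02% of bases were soft-masked; the part of these quantities in the few open Zfp 3′ UTRs was not tested.

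**Figure D4:**
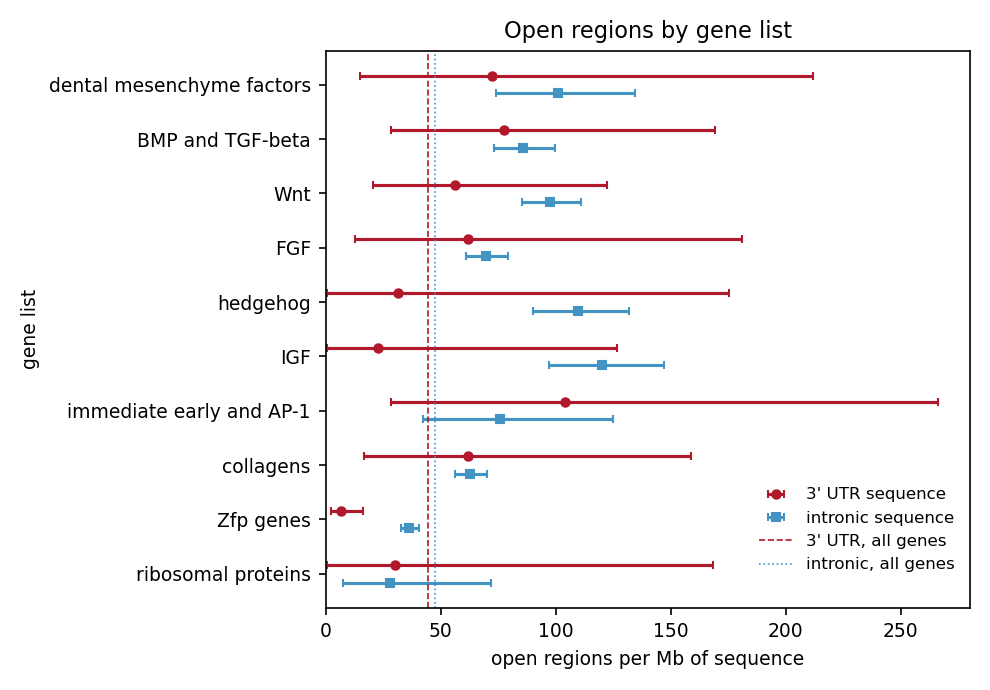
Open regions per Mb of eligible sequence (horizontal axis) in 3′ UTRs (red circles) and introns (blue squares) of the gene lists, with exact 95% Poisson intervals; the dashed and dotted lines mark all genes, at 44.4 for 3′ UTRs and 47.5 for introns. Lists with under 0.03 Mb of 3′ UTR sequence are not drawn, among them the muscle list, whose interval (145 to 2052) lies above the line. Of the lists drawn, Zfp genes, at 6.94 per Mb in 3′ UTRs, are the one whose 3′ UTR interval ends below it.

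Matches to the CTCF motif were more frequent in 3′ UTR regions than in introns of the same genes. Of the 487 3′ UTR regions with at least 10 reads, 44 held a match in the 200 bp round the midpoint (9.03%, 6.64 to 11.9), as did 61 of 1866 intronic regions (3.27%, 2.51 to 4.18), against 4.1% of all regions with at least 10 reads. In 3′ UTR windows away from regions the share was 0.0940%, or 57 of 60616. Matches were counted on both strands, at most once a region. The end of a CTCF match can run into a GGGCGG box, and the 2 motifs were counted separately. The match lay in soft-masked sequence in 1 of the 44 3′ UTR regions and in 5 of the 61 intronic ones. Of the 44 matches outside chromosome 18, in 43 regions of 43 genes, 19 were on the strand of the gene and 25 on the other.

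Among regions with at least 10 reads, the difference had the same direction at each level of composition tried. Below a G and C share of 45% the motif was in 5.71% of 3′ UTR regions (2.13 to 12.02) and 1.17% of intronic regions (0.430 to 2.52). From 45% to 55% it was in 9.48% (6.04 to 14.0) of 3′ UTR regions and 4.48% (3.25 to 6.00) of intronic ones, and above 55% in 10.7% (6.22 to 16.7) of 3′ UTR regions and 3.14% (1.68 to 5.31) of intronic ones. At 50 reads and more, 1 of 29 3′ UTR regions and 3 of 160 intronic regions held it, too few to compare. Among 3′ UTR regions with at least 10 reads, those with the motif had a median of 16.5 reads and those without it 16. Their median densities were 61.2 and 52.9 reads per kb of region. Over all 1386 3′ UTR regions, without this limit, the medians were 11 reads with the motif and 6 without it. Densities there were 46.0 and 23.7 reads per kb of region.

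The excess was smaller against a wider background and extended past the gene. Regions with at least 10 reads were again taken throughout. Among intronic regions of all protein-coding genes, not just those with an open 3′ UTR, 4.96% held the motif (4.61 to 5.33), and among regions neither in promoters nor in these classes 5.78% (5.46 to 6.13), while promoters held it in 0.695%. Grouped by distance from the nearest gene end, with at least 10 reads and over 1 kb from a TSS, the motif was in 9.11% of 384 regions in the last 1 kb of the gene (6.43 to 12.4). It was in 11.2% of 383 regions in the first 1 kb beyond it (8.25 to 14.8) and in 9.52% of 1050 regions from 2 to 5 kb beyond (7.82 to 11.5). From 5 to 2 kb inside the gene it was in 8.72% (6.93 to 10.8), and over 5 kb from any gene end in 5.05% of 30304 regions (4.80 to 5.30). The higher share was thus found on both sides of gene ends, inside and outside the 3′ UTR.

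**Figure D5:**
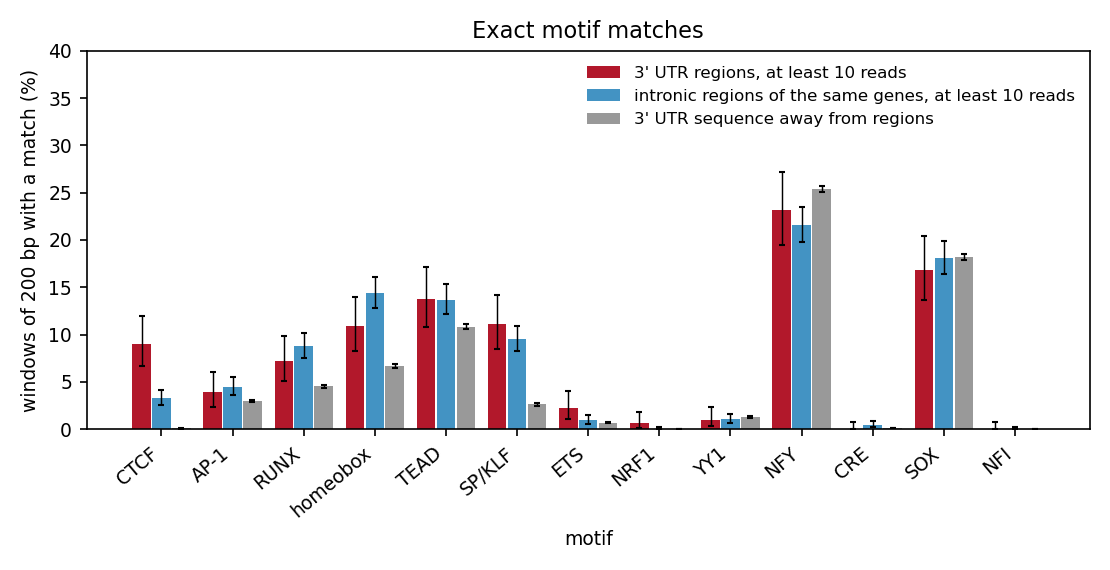
Share of 200 bp windows (percent, vertical axis) with an exact match to each motif in 3′ UTR regions with at least 10 reads (red, 487), intronic regions of the same genes with at least 10 reads (blue, 1866) and 3′ UTR windows away from regions (grey, 60616), with exact 95% binomial intervals. CTCF stands at 9.03%, 3.27% and 0.0940%. For every other motif drawn the intervals of the red and blue bars overlap.

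The other motifs were found at shares closer to those of introns. Here too, every share of regions is of those with at least 10 reads. The SP/KLF box GGGCGG was in 11.1% of 3′ UTR regions (8.44 to 14.2), 9.54% of intronic regions (8.24 to 10.96), 2.62% of 3′ UTR windows away from regions and 22.8% of all regions. The homeobox core TAATTA was in 10.9% (8.26 to 14.0) of 3′ UTR regions, 14.4% (12.9 to 16.1) of intronic regions and 10.2% of all regions. The RUNX element TGTGGTT was in 7.19% (5.06 to 9.85) of 3′ UTR regions, 8.79% (7.54 to 10.2) of intronic regions and 6.15% of all regions. The TEAD element GGAATG was in 13.8% (10.8 to 17.1) of 3′ UTR regions, 13.7% (12.1 to 15.3) of intronic regions and 11.6% of all regions. AP-1, as TGACTCA or TGAGTCA, was in 3.90% (2.36 to 6.03) of 3′ UTR regions, 4.50% (3.61 to 5.54) of intronic regions and 3.85% of all regions.

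Rarer motifs gave few matches. Except for the polyadenylation hexamer and where stated, counts and shares of regions are again of those with at least 10 reads. The ETS element CCGGAAG was in 11 3′ UTR regions (2.26%, 1.13 to 4.01), in 18 intronic regions (0.965%, 0.573 to 1.52) and in 4.16% of all regions. The NRF1 motif was in 3 of the 3′ UTR regions and 0 intronic ones, and the CRE (TGACGTCA) in 0 of the 3′ UTR regions and 9 intronic ones, against 0.333% and 0.728% of all regions. YY1 (AAGATGGC) was in 1.03% of 3′ UTR regions and 1.07% of intronic regions, against 1.56% of all regions. The short boxes CCAAT of NFY and ACAAAG of SOX factors were in 23.2% and 16.8% of 3′ UTR regions, 21.6% and 18.1% of intronic regions, and 22.9% and 14.7% of all regions, and 25.4% and 18.2% of 3′ UTR windows away from regions. The palindromic NFI motif was in 0 regions of either class and in 0.0274% of all regions at that limit. Without the limit, NFI was in 0 of the 1386 3′ UTR regions and 3 of the 5114 intronic ones. The CRE was then in 3 3′ UTR regions and 9 intronic ones. A polyadenylation hexamer on the transcript strand was in 203 of the 1386 3′ UTR regions (14.6%), with a median of 7 reads against 6 in the others. The hexamer was not counted in introns or in windows away from regions, so nothing is read from its share. All motif matches are letters in a window and do not show that a factor was bound.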

How the data were processed

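Per the labels' protocols, transposed DNA from lysed cells was sequenced as paired ends (NextSeq500), BWA-MEM aligned the reads to mm10, MACS2 called peaks and HOMER annotated them. STAR 2.6.1d and Partek appear in the submitters' processing notes, with no role given. Read shifting, duplicate removal and the set of libraries used to call regions are not given in the sources used here. Duplicates left in would raise counts and make intervals too narrow. The authors deposited values in CPM for 121574 regions, and a table of expected counts for 16382 of them. The CPM values were whole multiples of the smallest value for 99.9% of regions (tolerance 0.01 read), and reads were taken as that multiple minus 1; they equalled the deposited expected counts to within 0.00155. A further value column (1) has no sample and was left unused.

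Regions were placed by midpoint on GENCODE vM21 basic. Sequence windows of 200 bp came from RefSeq GRCm38.p6. Windows away from regions were set at every 500th base of eligible 3′ UTR sequence of all protein-coding genes. Placement was checked on 4000 simulated positions of chromosome 19, of which 100.0% fell in the same class by a loop over transcripts. Both methods used the same definitions of 3′ UTR, intron and TSS, so the check does not cover those definitions. Python 3.11.15, pandas 2.3.3 and scipy 1.17.1 were used. Members and gene lists were chosen with earlier results of these data known. Named genes were the 12 regions with the most reads, the 5 genes with the most regions, the 5 largest and 5 smallest ratios, the 3 widest regions, the 3 leading genes of each list, and Runx2, Msx1, Msx2, Igf1r, Igfbp5 and Bmp2; genes beyond this rule, the CTCF sites shown, the counts round gene ends and the Zfp composition were added after values were seen. Some genes named by this rule are not reported here.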

Additional observations from a re-analysis of the deposited data

How the results depend on the processing

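Of 62 alternatives, 49 left a value within its counting interval and 13 moved it. For median reads, read density, G and C share and the ratio of CTCF shares, the interval took the intronic value as fixed. It leaves out the counting error of that value and is too narrow. The ratio of regions per Mb, 3′ UTR over intron (0.935), was 0.789 with whole regions inside the class, 0.988 without first introns and 0.821 outside repeats. The difference in median reads (0) was -2 with regions under 10 reads left out, -1.5 in the shorter count table, -1.5 at 1 to 2 kb from a TSS and -2 at 2 to 5 kb. The share of genes with denser 3′ UTR reads (87.0%) was 98.7% without regions under 10 reads and 90.4% without regions of 0 reads. The share with the largest region in the 3′ UTR (25.03%) was 28.8% without first introns. The ratio of CTCF shares (2.76, 2.03 to 3.65) was 1.82 against intronic regions of all genes, 4.90 at a G and C share under 45% and 1.84 at 50 reads and more; comparison with all genes, the bins, the repeat setting and counting genes with shared regions once were chosen after seeing the data. The cause of these moves was not tested. Leaving out each lane was not run, since the files give 1 value for all lanes. No paired analysis was possible because there is 1 group and 1 value column. Depth limits single regions: a median region of 6 reads has an interval from 2.20 to 13.1.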
